A study of Homo sapiens with 15 samples.

Results

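The genes described here make serine, glycine and asparagine or carry amino acids across the plasma membrane: ASNS, PHGDH, PSAT1, PSPH, SHMT2, MTHFD2, SLC7A11, SLC7A5, SLC3A2 and SLC1A5. They are 10 of the 25503 genes with values in the study, and all 10 symbols were found. The genes were picked by symbol as a pathway, with earlier results of these data known. Their counts beside background shares are therefore descriptions and not independent support. mRNA was sequenced in 15 libraries of AsPC-1 and Capan-1, lines grown from human pancreatic ductal adenocarcinoma. AsPC-1 cells received an siRNA against B4GALT5 (siB4GALT5), an siRNA against B3GNT3 (siB3GNT3) or a control siRNA (siNC), and Capan-1 cells received siB3GNT3 or siNC, with 3 libraries in each of the 5 groups. B4GALT5 encodes a galactosyltransferase of glycolipid synthesis and B3GNT3 an N-acetylglucosaminyltransferase that extends O-glycans. All cells were transfected. Each line is a single line and the labels name no siRNA sequence, dose, time after transfection or separate culture. The p-values here thus reflect only how far libraries scatter within groups. That scatter was pooled for each gene over all groups of a fit, including groups not compared. The titles name the line Capan-1, while its cell line label reads "Capable-1".

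Serine is built from a glycolytic intermediate in 3 enzyme steps, by PHGDH, PSAT1 and PSPH. In mitochondria SHMT2 splits serine into glycine and a folate-bound carbon unit, which MTHFD2 oxidizes for purine and thymidylate synthesis, and ASNS makes asparagine from aspartate with nitrogen from glutamine. SLC1A5 brings in glutamine and other neutral amino acids, SLC7A5 exchanges glutamine for leucine and other large amino acids, and SLC7A11 exchanges glutamate for cystine. Both exchangers are light chains that reach the cell surface bound to the heavy chain SLC3A2. These genes are textbook targets of ATF4, the transcription factor made when amino acid shortage or endoplasmic reticulum stress phosphorylates eIF2α, and tumours of the pancreas are known for their high demand for amino acids.

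The promoter of ASNS is a classic one of the amino acid response, through a C/EBP-ATF response element followed by a second element, and the sequences below show where these letters and those of the E-box, the motif of MYC, stand near the genes. RefSeq promoters (GRCh38.p14) were found for 7 of the 10 genes, in 12 start-site windows, and the 250 bases before each start were searched on both strands. Promoters of PSPH, SHMT2 and SLC7A11 were not matched. Capitals mark TGATGNAA, the element of ASNS, and GTTACA, the second element, which share no base here, or CACGTG, the E-box. The first lines give 30 bases from ASNS (chr7:97872449-97872478, minus strand), spanning bases 70 to 41 before the start, and 30 bases from SLC1A5 (chr19:46784893-46784922, minus strand), spanning bases 108 to 79 before the most downstream of its starts. The last line gives the 250 bases before the start of SLC7A5 (chr16:87869508-87869757, minus strand).
ASNS: caTGATGAAActtcccgcacgcGTTACAgg
SLC1A5: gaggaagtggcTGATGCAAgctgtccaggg
SLC7A5: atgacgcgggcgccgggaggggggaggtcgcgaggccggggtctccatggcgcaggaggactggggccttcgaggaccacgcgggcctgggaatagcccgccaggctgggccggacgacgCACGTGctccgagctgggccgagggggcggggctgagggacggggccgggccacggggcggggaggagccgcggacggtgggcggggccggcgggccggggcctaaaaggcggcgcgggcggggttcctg
Of 35116 windows of this length over all genes, 3.14% held TGATGNAA, 5.59% held GTTACA, 0.379% held both and 6.34% held CACGTG. Among the 12 windows, ASNS and SLC1A5 held TGATGNAA, ASNS held GTTACA, and SLC7A5 and another start of SLC1A5 held CACGTG. A match is a run of letters and not a measured binding site.

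Read depth is unknown, since the values are FPKM, fragments per kilobase of transcript scaled to the size of the library. From the steps between low values, the libraries lay within -0.03 to 0.08 log2 units of an AsPC-1 siNC library. Only values close to those of that library were kept, so this measure could not show a large difference in reads. Per library, 10339 to 11531 genes reached 1 FPKM. B4GALT5 (chromosome 20) was 8.70, 8.49 and 8.03 FPKM in siB4GALT5 libraries, against 38.7, 35.8 and 35.5 in siNC. B3GNT3 (chromosome 19) was 2.53 and 2.504 FPKM in AsPC-1 siB3GNT3 replicates 1 and 2, against 22.5, 23.8 and 23.3 in siNC, and it was 24.2 FPKM in the library labelled replicate 3 of AsPC-1 siB3GNT3. In the other line B3GNT3 was 1.32, 1.67 and 1.84 FPKM with siB3GNT3, against 13.3, 13.2 and 13.7 with siNC. Of the ductal epithelial markers, 5 of 6 were above 1 FPKM in AsPC-1 and 6 of 6 in Capan-1; CDH1 was at 0.11 to 0.56 FPKM in AsPC-1 libraries. Of leukocyte and endothelial markers, CD68 in both lines and PECAM1 in Capan-1 passed 1 FPKM, and no acinar or islet marker did. Of fibroblast markers LUM did in AsPC-1, and COL1A1, PDGFRB and LUM in Capan-1. Summed over the 3 leukocyte markers found of 4, FPKM were 48.4 to 51.5 with siB4GALT5 and 51.5 to 52.3 with siB3GNT3 in AsPC-1, against 38.8 to 40.6 with siNC, nearly all from CD68, with PTPRC and CD3E near 0. The 6 ductal markers summed to 1935 to 1951 FPKM with siB4GALT5 and 1642 to 1652 FPKM with siB3GNT3 in AsPC-1, against 2023 to 2079 FPKM with siNC. In Capan-1 the 5 fibroblast markers summed to 80.0 to 85.7 FPKM with siB3GNT3, against 57.4 to 63.2 with siNC, and the 6 ductal markers to 3039 to 3906 FPKM, against 4764 to 4986. The part of these in the changes below was not tested. The 13 mitochondrially encoded mRNAs took 18.1% to 19.5% of FPKM in siB4GALT5, 19.7% to 20.1% in the kept siB3GNT3 libraries and 23.8% to 24.8% in siNC of AsPC-1, and 13.6% to 14.4% with siB3GNT3 against 14.3% to 14.8% with siNC in Capan-1; their part in the changes of the 10 genes was not tested.

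The library labelled replicate 3 of AsPC-1 siB3GNT3 was set apart because its target was not reduced. It stood near siNC in the 10 genes too: 6 lay inside the range of the 3 siNC libraries, among them SLC1A5 at 69.7 FPKM and SLC3A2 at 182.0 FPKM. The other 4 lay outside by little: PSAT1, SHMT2, MTHFD2 and SLC7A11 were at -2.69%, 3.27%, 5.50% and -4.12% from the siNC mean. Values for siB3GNT3 in AsPC-1 below come from replicates 1 and 2. These were kept because B3GNT3 was low in them, so their p-values describe the kept libraries and not the group as labelled. With the doubted library, limma called 0 of 9 genes tested (6 at an unadjusted p under 0.05) and 0 of all 10804 genes, 0% (3011 at an unadjusted p under 0.05), and the log2 fold changes of the 9 lay between 0.10 and 0.73.

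**Figure D1:**
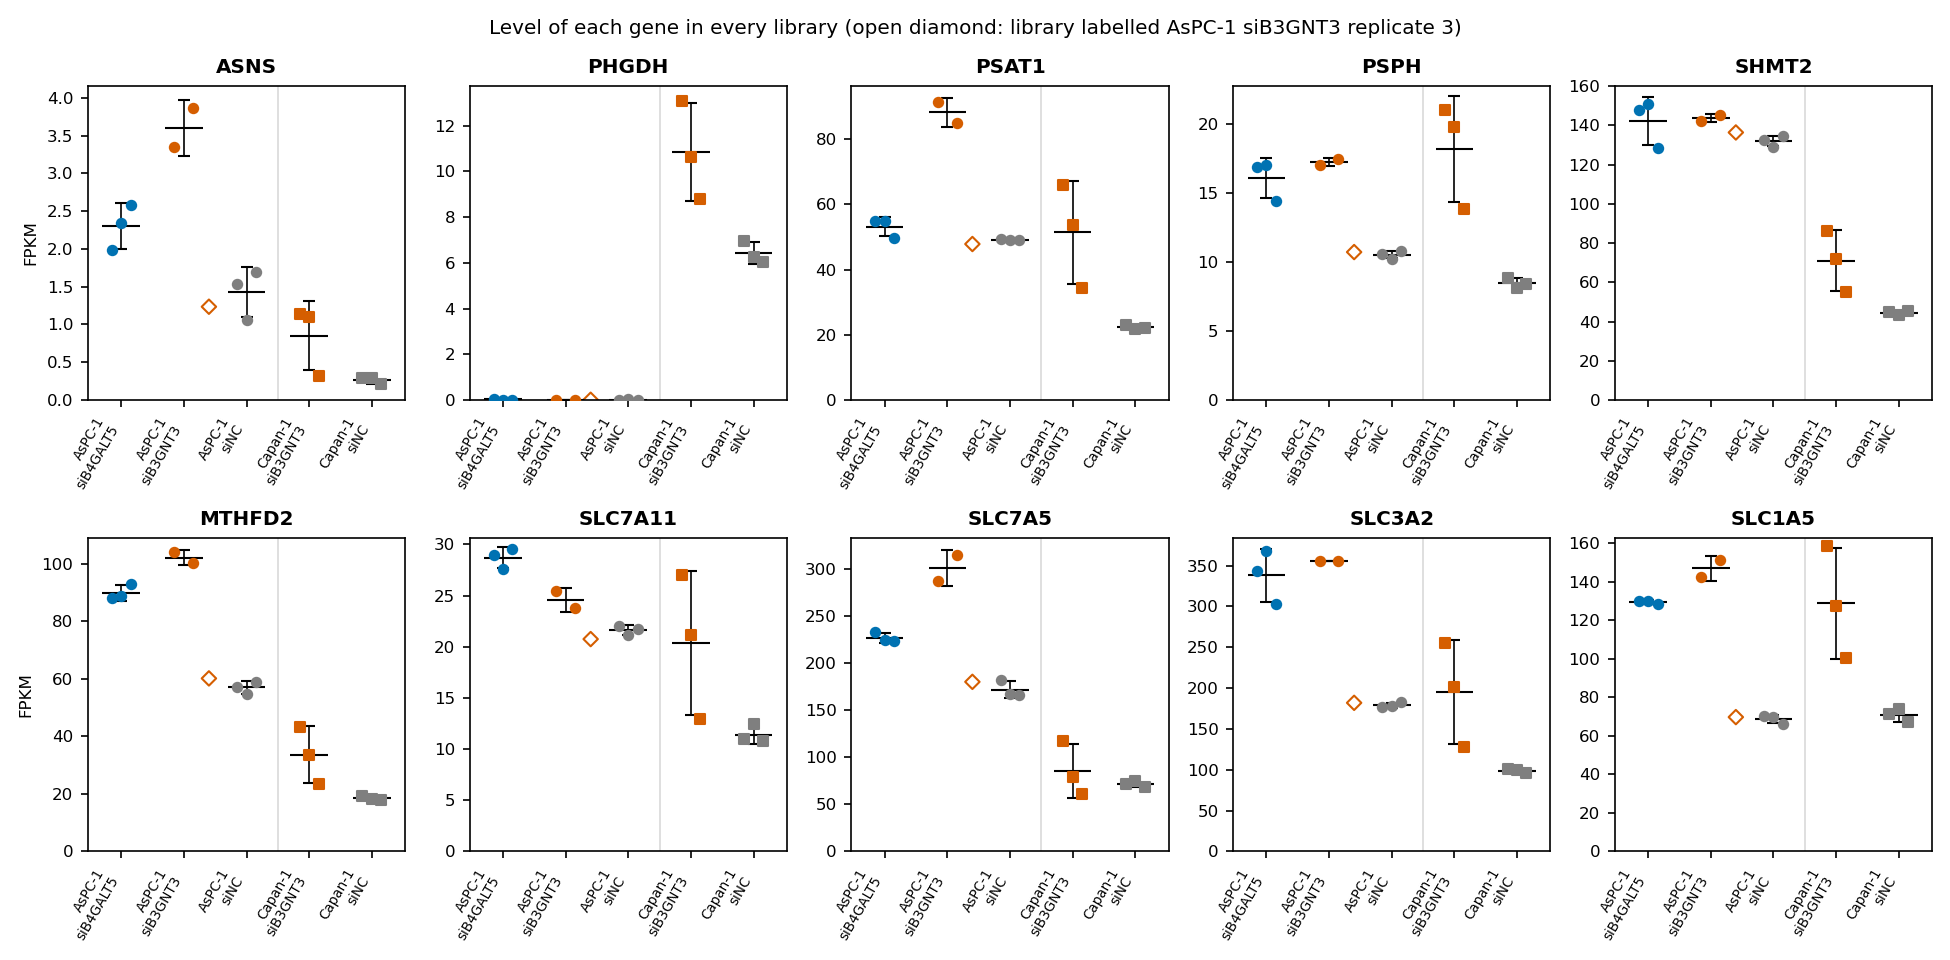
FPKM of each of the 10 genes in every library, with the group mean (bar) and SD (whisker); circles are AsPC-1, squares Capan-1. The open diamond is the library labelled replicate 3 of AsPC-1 siB3GNT3, which lies beside siNC in each panel, and PHGDH is near 0 in all AsPC-1 libraries.

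After B4GALT5 knockdown in AsPC-1, glutamine and heavy-chain transport genes rose the most of the 10 genes: SLC3A2 by 0.91 and SLC1A5 by 0.90 on the log2(FPKM + 1) scale, a scale on which fold changes of low genes are understated. MTHFD2 (0.65), PSPH (0.57), ASNS (0.45), SLC7A5 (0.40) and SLC7A11 (0.39) rose less. PSAT1 and SHMT2 had fold changes of 0.11 and 0.10 and were not called, and PHGDH lay below the filter of 1 FPKM in 3 libraries. In bulk RNA a change per cell and a change in the share of cells that express a gene cannot be told apart. So 7 of 9 tested genes rose and 0 fell at an adjusted p under 0.05 (limma), against a background of 35.2% of 10775 genes that rose and 23.0% that fell. The median of the 9 was 0.45 and that of all genes 0.06. Scaling by median ratios turned the split of all calls to 3071 up and 3181 down, and scaling to a common sum to 4576 up and 1881 down, while 7 and 9 of the 9 genes rose under these and 0 fell. With the library labelled replicate 3 of AsPC-1 siB3GNT3 in the fit, where 39.2% of genes were called in either direction, 5 of 9 were called and ASNS and SLC7A5 were not (limma adjusted p = 0.193 and 0.0936).

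After B3GNT3 knockdown in AsPC-1, 8 of 9 tested genes rose and 0 fell, beside 32.5% of all genes that rose and 20.4% that fell. On the log2(FPKM + 1) scale the rises were led by SLC1A5 (1.08), SLC3A2 (0.99) and ASNS (0.93). PSAT1 and MTHFD2 (0.83 each), SLC7A5 (0.80) and PSPH (0.66) stood behind them. By the ratio of mean FPKM to siNC the low gene ASNS came first, at 2.51, before SLC1A5 at 2.14 and SLC3A2 at 1.99. SLC7A11 rose by 0.18, and SHMT2 had a fold change of 0.12 and was not called. The median of the 9 was 0.83 and that of all genes 0.07. With median-ratio scaling 2640 genes rose and 3018 fell, and 7 of the 9 rose; with a common sum 4355 rose and 1675 fell, and 9 of the 9 rose.

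After B3GNT3 knockdown in Capan-1, 8 of 9 tested genes rose and 0 fell, beside 18.7% of 11493 genes that rose and 14.2% that fell. Here PSAT1 and PSPH of serine synthesis led, with rises of 1.12 and 1.00. They were followed by SLC3A2 (0.91), SLC1A5 (0.83), MTHFD2 (0.79) and SLC7A11 (0.73). PHGDH, also of serine synthesis, rose by 0.66 and SHMT2 by 0.64. SLC7A5 had a fold change of 0.19 and was not called, and ASNS lay below the filter. The median of the 9 was 0.79 and that of all genes 0.02; median-ratio scaling gave 1781 genes up and 2079 down, with 8 of the 9 still up. With no filter on low values, 4 of 10 genes were called (PHGDH, PSAT1, PSPH and SLC1A5), where 11.8% of 22473 genes were.

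**Figure D2:**
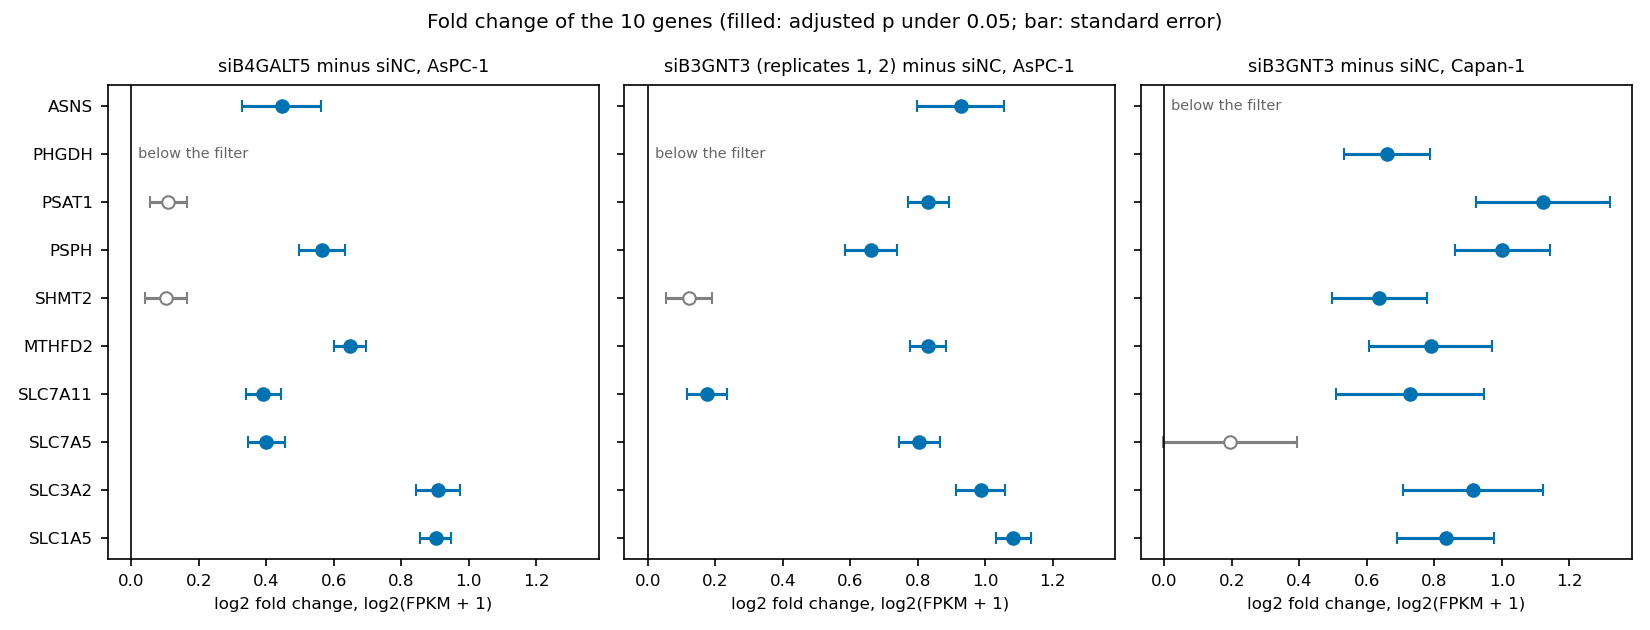
Log2 fold change of each gene on log2(FPKM + 1), with its standard error, for siB4GALT5 and siB3GNT3 in AsPC-1 and siB3GNT3 in Capan-1, each minus siNC. Filled points passed an adjusted p of 0.05; open points lie at 0.10 to 0.19, and no point lies below 0.

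PHGDH, which commits a glycolytic intermediate to serine (chromosome 1, 119648411 to 119744226, plus strand; gene positions are GENCODE 29, GRCh38), was a Capan-1 gene in these data. It was at 13.1, 10.6 and 8.81 FPKM with siB3GNT3 in Capan-1, against 6.97, 6.27 and 6.03 FPKM with siNC, and the groups did not overlap. The rise was 0.66 (SE 0.13, limma adjusted p = 0.00699), and it was called in each of 14 alternative fits, at adjusted p = 0.000151 to 0.0379. In AsPC-1 PHGDH was at 0.0166 to 0.0545 FPKM with siB4GALT5, 0.00991 and 0.0136 FPKM with siB3GNT3 and 0.00660 to 0.0235 FPKM with siNC. Those values are too low to read a change from.

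PSAT1, the transaminase of the second step (chromosome 9, 78297143 to 78330093, plus strand), separated the knockdowns most clearly. In AsPC-1 it was 54.9, 54.9 and 49.8 FPKM with siB4GALT5 and 91.4 and 85.0 FPKM with siB3GNT3, against 49.4, 49.1 and 48.9 FPKM with siNC. Every siB4GALT5 library lay above siNC, but replicate 3 by less than 1 FPKM, and the difference was not called (0.11, SE 0.05, limma adjusted p = 0.108). Without siB4GALT5 replicate 3 it was (0.16, adjusted p = 0.00991), as with common-sum scaling (0.20, adjusted p = 0.00693). The rise with siB3GNT3 was 0.83 (SE 0.06, adjusted p = 7.73e-06). In Capan-1 PSAT1 was 65.9, 53.7 and 34.4 FPKM with siB3GNT3, against 23.1, 21.8 and 21.96 FPKM with siNC (1.12, SE 0.20, adjusted p = 0.00468). The lowest siB3GNT3 library stood above the highest siNC library there.

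PSPH, the phosphatase that releases serine (chromosome 7, 56011051 to 56051604, minus strand), rose in all 3 comparisons. In AsPC-1 it was 16.9, 17.0 and 14.5 FPKM with siB4GALT5 and 17.0 and 17.5 FPKM with siB3GNT3, against 10.6, 10.3 and 10.8 FPKM with siNC. Neither knockdown group overlapped siNC (0.57, SE 0.07, limma adjusted p = 0.000114; and 0.66, SE 0.08, adjusted p = 0.000111). Capan-1 libraries held 21.1, 19.8 and 13.9 FPKM with siB3GNT3, against 8.88, 8.11 and 8.44 FPKM with siNC (1.00, SE 0.14, adjusted p = 0.00176). PSPH was thus over 1.5-fold its siNC mean in each group: 1.53-fold and 1.64-fold in AsPC-1 and 2.15-fold in Capan-1. The annotation lists 1 pseudogene of PSPH, 4 of PSAT1, 4 of ASNS, 7 of MTHFD2 and 2 of SLC7A5, and rules for splitting reads between them and the genes are not given in the sources used here.

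SHMT2, the mitochondrial serine hydroxymethyltransferase (chromosome 12, 57229327 to 57234935, plus strand), differed in level between the lines. In AsPC-1 it was 147.9, 150.9 and 128.4 FPKM with siB4GALT5 and 142.4 and 145.2 FPKM with siB3GNT3, against 132.7, 129.2 and 134.4 FPKM with siNC. The siB4GALT5 libraries overlapped siNC and the siB3GNT3 libraries lay above it by under 10% of its mean, and neither difference was called (0.10, SE 0.06, limma adjusted p = 0.176; and 0.12, SE 0.07, adjusted p = 0.165). Without siB4GALT5 replicate 3 the first was called (0.18, adjusted p = 0.00233). With common-sum scaling both were (0.19 and 0.21, adjusted p = 0.0146 and 0.0172), and the second was in a fit of siB3GNT3 and siNC alone (adjusted p = 0.0206). In Capan-1 SHMT2 was 86.1, 71.8 and 55.002 FPKM with siB3GNT3, against 44.9, 43.5 and 45.2 FPKM with siNC. These groups did not overlap, and SHMT2 rose by 0.64 (SE 0.14, adjusted p = 0.0109).

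MTHFD2, the next enzyme in mitochondria (chromosome 2, 74198562 to 74217565, plus strand), rose in both lines. It was 88.0, 88.9 and 93.1 FPKM with siB4GALT5 and 104.0 and 100.3 FPKM with siB3GNT3 in AsPC-1, against 57.3, 54.8 and 59.1 FPKM with siNC. Both groups stood clear of siNC (0.65, SE 0.05, limma adjusted p = 5.69e-06; and 0.83, SE 0.05, adjusted p = 4.33e-06). Capan-1 cells had 43.4, 33.7 and 23.6 FPKM with siB3GNT3, against 19.5, 18.1 and 17.8 FPKM with siNC (0.79, SE 0.18, adjusted p = 0.0134). That call was lost without siNC replicate 2 or replicate 3 (adjusted p = 0.0511 and 0.0510).

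ASNS, asparagine synthetase (chromosome 7, 97852118 to 97872542, minus strand), whose promoter elements are printed above, was the lowest of the 9 genes tested in AsPC-1. It was 1.98, 2.34 and 2.58 FPKM with siB4GALT5 and 3.34 and 3.86 FPKM with siB3GNT3, against 1.54, 1.06 and 1.701 FPKM with siNC. The 3 groups did not overlap, and ASNS rose by 0.45 (SE 0.12, limma adjusted p = 0.00885) and by 0.93 (SE 0.13, adjusted p = 0.000330). In Capan-1 it was 1.14, 1.10 and 0.323 FPKM with siB3GNT3, against 0.285, 0.288 and 0.210 FPKM with siNC. The groups did not overlap, but replicate 3 was within 0.04 FPKM of siNC, and without the filter the difference was 0.52 (SE 0.19, adjusted p = 0.149).

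SLC1A5, the glutamine carrier (chromosome 19, 46774883 to 46788594, minus strand), rose in all 3 comparisons. In AsPC-1 it was 130.0, 129.9 and 128.2 FPKM with siB4GALT5 and 142.4 and 151.4 FPKM with siB3GNT3, against 70.5, 69.7 and 66.2 FPKM with siNC. The siB4GALT5 libraries lay within 2 FPKM of each other and far above siNC (0.90, SE 0.05, limma adjusted p = 6.92e-07), and siB3GNT3 higher still (1.08, SE 0.05, adjusted p = 8.49e-07). The levels in Capan-1 were 158.3, 127.4 and 100.6 FPKM with siB3GNT3, against 71.3, 73.8 and 67.0 FPKM with siNC. Again no libraries overlapped (0.83, SE 0.14, adjusted p = 0.00423).

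SLC3A2, the heavy chain shared by the exchangers (chromosome 11, 62856102 to 62888875, plus strand), had the highest group mean of the 10 genes in every group. In AsPC-1 it was 343.0, 367.9 and 302.8 FPKM with siB4GALT5 and 355.3 and 355.6 FPKM with siB3GNT3, against 176.6, 177.7 and 182.6 FPKM with siNC. It rose by 0.91 (SE 0.07, limma adjusted p = 4.42e-06) and 0.99 (SE 0.07, adjusted p = 8.12e-06), with no overlap. In Capan-1 it was 255.3, 201.4 and 128.5 FPKM with siB3GNT3, against 101.2, 99.4 and 96.7 FPKM with siNC (0.91, SE 0.21, adjusted p = 0.0124). At siNC, SLC3A2 exceeded 97.2% of the genes with a mean of at least 1 FPKM in AsPC-1 and 95.0% in Capan-1.

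SLC7A5, the light chain for leucine and other large amino acids (chromosome 16, 87830023 to 87869488, minus strand), whose promoter is printed above, rose in AsPC-1. It was 232.9, 224.4 and 223.3 FPKM with siB4GALT5 and 287.0 and 314.4 FPKM with siB3GNT3, against 182.2, 166.7 and 166.2 FPKM with siNC, and the 3 groups stood apart (0.40, SE 0.05, limma adjusted p = 0.000198; and 0.80, SE 0.06, adjusted p = 8.31e-06). In Capan-1 it was 117.0, 79.2 and 60.6 FPKM with siB3GNT3, against 72.1, 75.2 and 68.9 FPKM with siNC. There the knockdown libraries lay on both sides of siNC (0.19, SE 0.20, adjusted p = 0.475). The value was -0.05 without siB3GNT3 replicate 1 and 0.41 without replicate 3, when it was called (adjusted p = 0.0250).

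SLC7A11, the cystine exchanger (chromosome 4, 138164097 to 138242349, minus strand), had the smallest called rise in AsPC-1. It was 28.97, 27.6 and 29.6 FPKM with siB4GALT5 and 25.4 and 23.8 FPKM with siB3GNT3, against 22.04, 21.2 and 21.7 FPKM with siNC. The groups did not overlap, and it rose by 0.39 (SE 0.05, limma adjusted p = 0.000203) and 0.18 (SE 0.06, adjusted p = 0.0309). The second call was lost with median-ratio scaling (0.07, adjusted p = 0.339) and without siNC replicate 1, 2 or 3 or siB3GNT3 replicate 1 (adjusted p = 0.0560, 0.0935, 0.0666 and 0.207). In Capan-1 SLC7A11 was 27.0, 21.2 and 12.9 FPKM with siB3GNT3, against 10.98, 12.4 and 10.8 FPKM with siNC (0.73, SE 0.22, adjusted p = 0.0349). Replicate 3 of siB3GNT3 was close to the highest siNC library. The call was lost without any of the other 5 libraries: siB3GNT3 replicates 1 and 2 (adjusted p = 0.0785 and 0.108) and siNC replicates 1, 2 and 3 (adjusted p = 0.104, 0.0750 and 0.105). SLC7A11-AS1 lies antisense to part of the gene, and strand settings of the counting are not given in the sources used here.

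The heavy chain was higher relative to the sum of SLC7A5 and SLC7A11 in knockdown libraries. SLC7A5 was the larger part of that sum in every library, and other light chains of SLC3A2 were not included. The ratio of SLC3A2 to the sum of SLC7A5 and SLC7A11, all in FPKM, was 1.31, 1.46 and 1.20 with siB4GALT5 and 1.14 and 1.05 with siB3GNT3 in AsPC-1, against 0.864, 0.946 and 0.972 with siNC. In Capan-1 it was 1.77, 2.01 and 1.75 with siB3GNT3, against 1.22, 1.13 and 1.21 with siNC. The ratio of SLC7A5 to SLC7A11 was higher than in siNC with siB3GNT3 in AsPC-1 and lower in Capan-1. It was 11.3 and 13.2 with siB3GNT3 and 8.27, 7.88 and 7.65 with siNC in AsPC-1, but 4.33, 3.74 and 4.69 with siB3GNT3 and 6.57, 6.04 and 6.36 with siNC in Capan-1. In siB4GALT5 libraries it was 8.04, 8.13 and 7.55, which overlapped AsPC-1 siNC. No group overlapped its siNC group in these ratios but siB4GALT5 in the last, and no test was run on them.

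**Figure D3:**
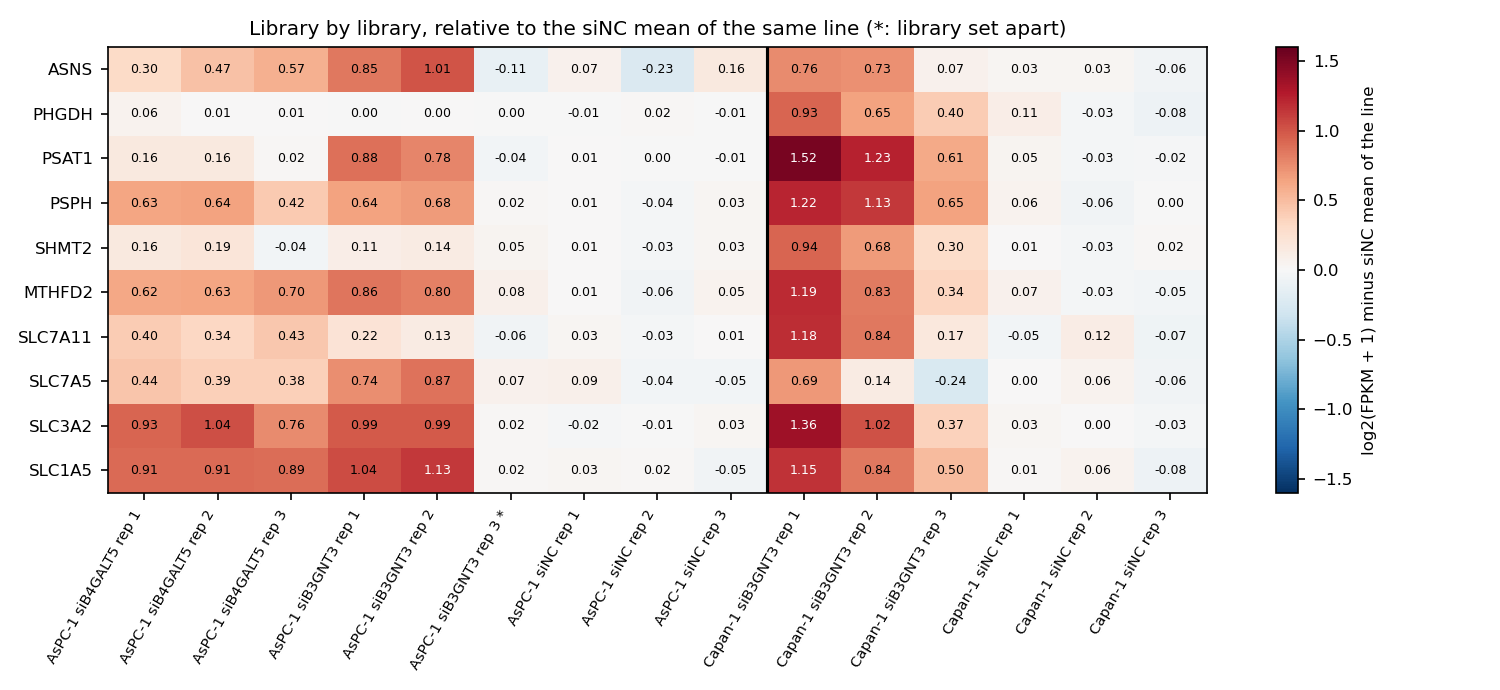
Each cell is log2(FPKM + 1) of a gene in a library minus the siNC mean of the same line, with AsPC-1 left of the black line and Capan-1 right of it. The starred library was set apart, and among Capan-1 siB3GNT3 libraries replicate 1 is the highest and replicate 3 the lowest in all 10 genes.

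The Capan-1 siB3GNT3 libraries differed from each other in a common direction over the 10 genes. Replicate 1 was the highest and replicate 3 the lowest of them in 10 of 10 genes. How many of all genes had this order was not counted, so it may not be particular to the 10. The median difference from the siNC mean over the 10 genes was 1.16, 0.84 and 0.36 in replicates 1, 2 and 3. Their B3GNT3 levels were 1.32, 1.67 and 1.84 FPKM, and a link between these levels and the order was not tested. Of the regulators, TRIB3, a pseudokinase that ATF4 induces, was 86.0, 43.5 and 21.6 FPKM there, against 11.3, 11.6 and 10.01 FPKM with siNC, while ATF4 mRNA was 58.3, 55.7 and 57.0 FPKM, against 46.6, 44.4 and 45.6 FPKM with siNC. In AsPC-1 the same medians lay close together: 0.42, 0.43 and 0.43 in siB4GALT5, and 0.79 and 0.79 in siB3GNT3.

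Set against each other in AsPC-1, siB4GALT5 gave lower levels than siB3GNT3 in 5 of 9 genes and a higher level in 1, beside 17.4% of all genes that were lower and 17.8% that were higher. PSAT1 differed the most (-0.72, SE 0.06, limma adjusted p = 3.34e-05), followed by ASNS (-0.48, adjusted p = 0.0185) and SLC7A5 (-0.40, adjusted p = 0.000899). MTHFD2 and SLC1A5 differed by -0.18 each (adjusted p = 0.0277 and 0.0216), and SLC7A11 was the gene higher with siB4GALT5 (0.22, adjusted p = 0.0190). PSPH, SHMT2 and SLC3A2 were not called (-0.10, -0.02 and -0.08, adjusted p = 0.366, 0.867 and 0.441). The call of MTHFD2 was lost without siB4GALT5 replicate 1 or 2 or siB3GNT3 replicate 1 or 2 (adjusted p = 0.0786, 0.0618, 0.168 and 0.0791). That of ASNS was lost without siB4GALT5 replicate 1 or siB3GNT3 replicate 1 or 2 (adjusted p = 0.0564, 0.0515 and 0.137), and that of SLC7A11 without siB4GALT5 replicate 1 or siB3GNT3 replicate 2 (adjusted p = 0.0528 and 0.153). SLC1A5 lost its call without siB3GNT3 replicate 2 (adjusted p = 0.174), and 3 and 2 of 9 genes were called without siB4GALT5 replicate 1 and siB3GNT3 replicate 2. PSAT1 and SLC7A5 were called in each fit that left out 1 library. With the library labelled replicate 3 of AsPC-1 siB3GNT3, only SLC7A11 was called, where 15.9% of genes were called in either direction.

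The response to B3GNT3 knockdown was then compared between the lines by an interaction term over 14 libraries. PHGDH is too low in AsPC-1 and ASNS in Capan-1 to compare, so the count covers the 8 genes that passed the filter in each line. Of these, 0 had a larger and 1 a smaller response in AsPC-1 than in Capan-1, beside 20.4% and 12.9% of 10068 such genes (2055 larger and 1301 smaller, but 1675 larger and 1751 smaller with median-ratio scaling). The gene was SHMT2, which differed by -0.52 (SE 0.17, limma adjusted p = 0.0355). SLC7A5 had the largest difference in the other direction and was not called (0.61, SE 0.24, adjusted p = 0.0624). The SHMT2 call was kept without Capan-1 siB3GNT3 replicate 3 and lost when any of the other 10 libraries of the compared groups was left out (adjusted p = 0.0532 to 0.0995). It was also lost with no filter, with common-sum scaling and with the library labelled replicate 3 of AsPC-1 siB3GNT3 in the fit (adjusted p = 0.0950, 0.0608 and 0.0571). Without Capan-1 siB3GNT3 replicate 3, 4 of the 8 genes were called smaller, with PSAT1 (-0.55, adjusted p = 0.00154), PSPH (-0.52, adjusted p = 0.00151) and SLC7A11 (-0.83, adjusted p = 0.000234) added. In that fit 16.8% of the 10068 genes were called smaller and 25.6% larger. Without Capan-1 siB3GNT3 replicate 1, SLC7A5 and SLC1A5 were called larger in AsPC-1 (0.86 and 0.41, adjusted p = 0.000438 and 0.0176). In that fit 20.2% of the 10068 genes were called larger and 12.5% smaller, so the count of the 8 is near the share of all genes.

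At control siRNA 7 of the same 8 genes were higher and 0 lower in AsPC-1 than in Capan-1 (limma), beside 36.2% and 39.2% of the 10068 genes. PHGDH and ASNS passed the filter through 1 line only and are given as levels, with no test. PHGDH was at 0.0122 ± 0.00972 FPKM in AsPC-1 and 6.42 ± 0.491 FPKM in Capan-1, and ASNS at 1.43 ± 0.332 FPKM in AsPC-1 and 0.261 ± 0.0442 FPKM in Capan-1 (SD, n = 3 each). MTHFD2 and SHMT2 were the furthest above, at 57.0 ± 2.17 and 132 ± 2.66 FPKM in AsPC-1 and 18.5 ± 0.873 and 44.5 ± 0.944 FPKM in Capan-1 (1.58 and 1.55). SLC7A5 (1.24), PSAT1 (1.11), SLC7A11 (0.87), SLC3A2 (0.85) and PSPH (0.29) were higher in AsPC-1 too. SLC1A5 did not pass the test, at 68.8 ± 2.25 FPKM in AsPC-1 and 70.7 ± 3.43 FPKM in Capan-1 (-0.04, SE 0.11, adjusted p = 0.767). The PSPH call (adjusted p = 0.0370) was lost without AsPC-1 siNC replicate 1, 2 or 3 (adjusted p = 0.0756, 0.0583 and 0.0875) and without Capan-1 siNC replicate 2 or 3 (adjusted p = 0.101 and 0.0758), and with the doubted library in the fit (adjusted p = 0.134). PSPH was called in 7 of 15 alternative fits, at limma adjusted p down to 0.000465. Knockdown libraries enter the spread of this comparison too. Scaling to a common sum moved the median of all genes by -0.14, with 2911 of the 10068 higher and 4764 lower in AsPC-1, and left 6 of the 8 higher (PSPH 0.14, adjusted p = 0.311). Each group is 1 line, so the line and anything else that differed between the 2 sets of libraries cannot be told apart.

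Across the 5 groups the order of mean levels was not the same for each gene. MTHFD2 ran from AsPC-1 siB3GNT3 through siB4GALT5 and siNC to Capan-1 siB3GNT3 and siNC, and no neighbours in that order had overlapping libraries. For SLC1A5, AsPC-1 siB4GALT5 and Capan-1 siB3GNT3 overlapped in the middle of the order and AsPC-1 siNC and Capan-1 siNC at its low end. For SLC3A2, SLC7A11 and ASNS, Capan-1 siB3GNT3 overlapped AsPC-1 siNC. For PSAT1, Capan-1 siB3GNT3 overlapped both AsPC-1 siB4GALT5 and AsPC-1 siNC.

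Regulators of these genes and other pathway lists are counted beside the background shares given above for each comparison. Of 19 tested in AsPC-1, 12 rose and 1 fell with siB4GALT5 and 14 rose and 0 fell with siB3GNT3, with medians of 0.28 and 0.67. In Capan-1 10 of 18 rose and 1 fell (median 0.47). ATF4 was 84.2, 94.3 and 80.2 FPKM with siB4GALT5 and 81.0 and 86.8 FPKM with siB3GNT3 in AsPC-1, against 40.3, 41.4 and 39.6 FPKM with siNC (1.07 and 1.03, limma adjusted p = 1.67e-06 and 5.70e-06). In Capan-1 its rise was 0.32 (adjusted p = 0.00548). CEBPG, a C/EBP partner of ATF4, rose by 0.28 with siB4GALT5 and 1.01 with siB3GNT3 in AsPC-1, and by 1.20 in Capan-1 (adjusted p = 0.0128, 1.80e-05 and 0.00358). MYC, a known inducer of SLC7A5 and SLC1A5, rose by 0.38 and 0.35 in AsPC-1 and by 0.95 in Capan-1 (adjusted p = 0.000430, 0.00170 and 0.0119). SLC7A5 was not called in Capan-1 (0.19), and SLC1A5 rose by 0.83 there. NFE2L2, a known inducer of SLC7A11, rose by 0.21 with siB4GALT5 and by 0.62 in Capan-1, and had 0.11 with siB3GNT3 in AsPC-1 (adjusted p = 0.0142, 0.0149 and 0.185). DDIT3, TRIB3, ATF3 and PPP1R15A had the smallest p of the list in AsPC-1, with rises of 2.32 to 3.11. The part of these regulators in the changes of the 10 genes was not tested.

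Other amino acid transporters rose more often than they fell: 8 of 12 rose and 1 fell with siB4GALT5, 7 of 12 rose and 3 fell with siB3GNT3 in AsPC-1, and 8 of 15 rose and 1 fell in Capan-1. SLC1A4, a carrier of serine, alanine and other neutral amino acids, was 11.2, 11.6 and 11.7 FPKM with siB4GALT5 and 14.6 and 15.2 FPKM with siB3GNT3 in AsPC-1, against 6.63, 6.23 and 6.33 FPKM with siNC. It rose by 0.76 and 1.10, and by 0.73 in Capan-1. SLC7A1, a carrier of arginine and lysine, rose by 0.76 with siB4GALT5. With siB3GNT3 in AsPC-1 SLC7A7, another light chain of SLC3A2, and SLC36A1, a lysosomal amino acid carrier, fell by 1.82 and by 0.65.

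Enzymes of folate metabolism outside the 10 genes did not follow them. With siB4GALT5 2 of 11 rose and 7 fell, with siB3GNT3 in AsPC-1 3 of 11 rose and 5 fell, and in Capan-1 1 rose and 2 fell. SHMT1, the cytosolic counterpart of SHMT2, was 4.64, 4.002 and 5.002 FPKM with siB4GALT5 and 5.18 and 5.84 FPKM with siB3GNT3 in AsPC-1, against 8.89, 8.31 and 8.88 FPKM with siNC. It fell by 0.81 and by 0.58 (limma adjusted p = 3.39e-05 and 0.000648), and had -0.20 in Capan-1 (adjusted p = 0.0654). TYMS, which makes thymidylate with a folate-bound carbon, fell by 0.70 and by 0.76 in AsPC-1 and by 0.64 in Capan-1 (adjusted p = 8.99e-05, 0.000136 and 0.00141). MTHFD1, the cytosolic folate enzyme, fell by 0.46 and by 0.62 in AsPC-1.

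Among 7 tested genes of glycine cleavage and serine use, 2 rose and 4 fell with siB4GALT5 and 2 rose and 2 fell with siB3GNT3 in AsPC-1; in Capan-1 2 of 8 rose and 2 fell. CTH, which makes cysteine from serine-derived cystathionine, rose by 0.83, 1.20 and 1.04. GCSH, a subunit of glycine cleavage, was 6.06, 5.61 and 6.96 FPKM with siB4GALT5, against 34.4, 33.6 and 37.8 FPKM with siNC, a fall by 2.33 (limma adjusted p = 1.42e-07). With siB3GNT3 in AsPC-1 GCSH fell by 0.28. Of other amino acid synthesis genes, 5 of 15 rose and 5 fell with siB4GALT5, 5 rose and 4 fell with siB3GNT3 in AsPC-1, and 4 of 17 rose and 3 fell in Capan-1. GPT2, which makes alanine and 2-oxoglutarate in mitochondria, rose by 0.83, 1.03 and 0.93, and PCK2, the mitochondrial carboxykinase, by 1.04, 1.56 and 1.404.

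**Figure D4:**
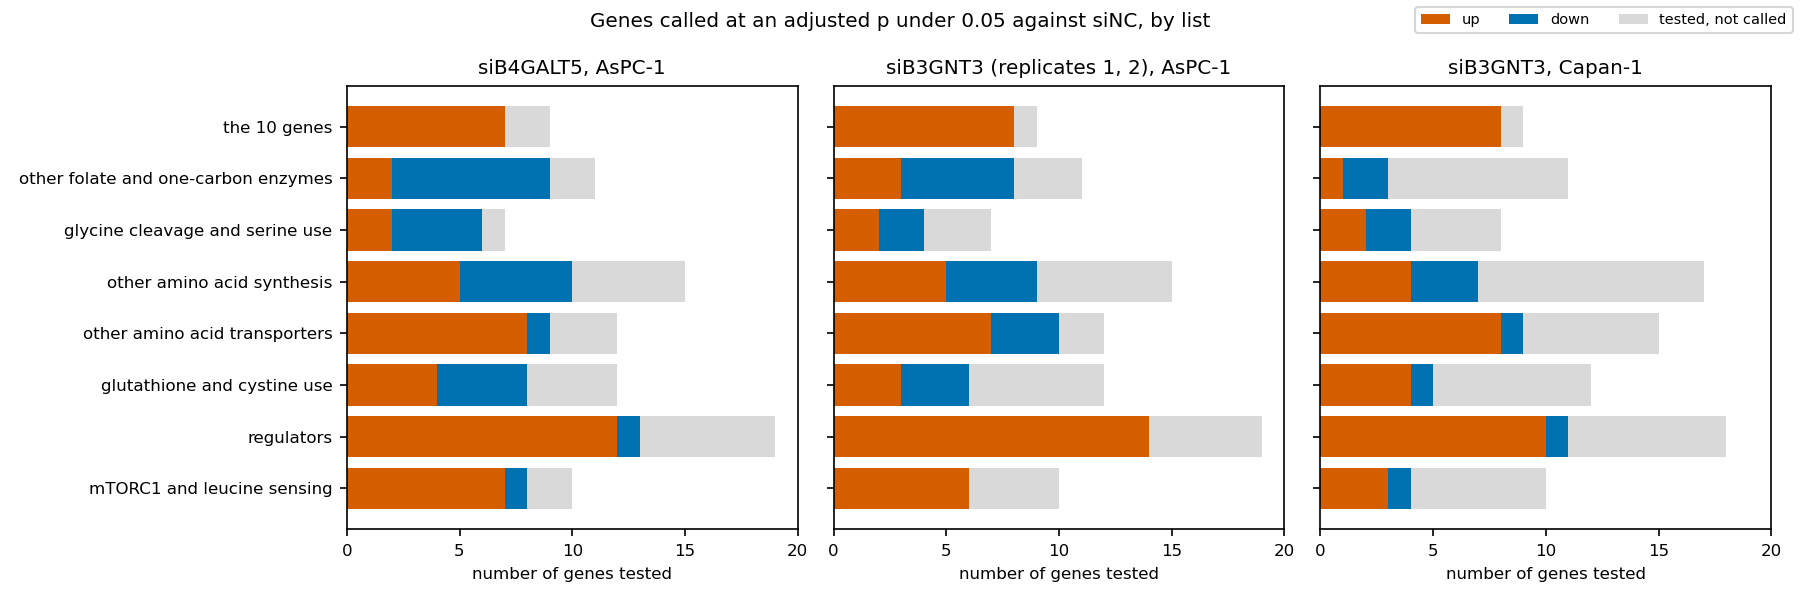
Number of genes that rose, fell or were tested and not called (limma, adjusted p under 0.05) for the 10 genes and 7 other lists, with siB4GALT5 and siB3GNT3 in AsPC-1 and siB3GNT3 in Capan-1, each against siNC. Bars of folate enzymes hold 7, 5 and 2 falling genes, while those of the 10 genes hold 0.

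Genes with the most similar pattern were looked for over 14 libraries by the root mean square difference of log2(FPKM + 1) minus the siNC mean of the line. For SLC1A5, whose own root mean square was 0.712, the nearest were GPT2 (0.0767), LTBP2 (0.107), SARS1 (0.109) and SLC1A4 (0.114), out of 2248 genes. For ASNS (own value 0.505) they were ZIC2, ZFP90, YARS1 and GARS1, at 0.139 to 0.162; SARS1, YARS1 and GARS1 encode the tRNA synthetases of serine, tyrosine and glycine. For SLC7A11 (own value 0.437) they were RGMB, SNHG1, SKIL and CDK17, at 0.0971 to 0.118. For PHGDH (own value 0.323) they were SALL1, FOXC2, SFRP5 and GPR37, at 0.0408 to 0.0482. PHGDH was near 0 FPKM in all AsPC-1 libraries, so its pattern rests on the Capan-1 libraries alone. Its small distances are therefore not comparable with those of the other genes.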

How the data were processed

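The authors deposited FPKM per gene and library, the only values used, taken with no further scaling. Per the submitters' processing notes, Bowtie2, RSEM 1.3.1, DESeq2 1.4.5 and GRCh38 were used, in no stated role; gene models are not given in the sources used here. Differences were tested with limma 3.58.1 (R 4.3.3, intensity trend) on log2(FPKM + 1), for genes of at least 1 FPKM in 3 libraries of the fit, with Benjamini-Hochberg adjustment over all genes; calls are at an adjusted p under 0.05. Fits held 8 AsPC-1, 6 Capan-1 or 14 libraries of both, without the library labelled replicate 3 of AsPC-1 siB3GNT3. Comparisons between lines count the genes past the filter in each line on its own, a choice made after seeing the data. The test was tested on simulated data in which every group had the spread of siNC libraries. That simulation does not cover groups that scatter more, such as Capan-1 siB3GNT3 in the 10 genes. Columns were matched to groups by the labels. Named are the 10 genes, both targets, the 4 genes of smallest p per comparison in every other list (some of these are left out) and the 4 most alike genes of 4 members; ATF4, CEBPG, MYC and NFE2L2 were named outside this rule, after their values were seen. The members and lists were chosen with earlier results of these data known. FPKM hold no read counts, so depth is unknown, and the number of libraries limits precision. Figures used matplotlib 3.10.9 in Python 3.11.15.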

Additional observations from a re-analysis of the deposited data

Results flagged for a closer look

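The response of SHMT2 to B3GNT3 knockdown was smaller in AsPC-1 than in Capan-1 by an interaction term over 14 libraries (-0.52, limma adjusted p = 0.0355), with fold changes of 0.12, not called, in AsPC-1 and 0.64 in Capan-1. The call held in 7 of 20 alternative fits, at adjusted p up to 0.0995, and was lost when any of 10 of the 11 libraries compared was left out. It was also lost with no filter, with common-sum scaling and with the library labelled replicate 3 of AsPC-1 siB3GNT3.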

How the results depend on the processing

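Of 858 values of single genes under the alternatives (pseudocount 0.1, no filter, a filter of 5 FPKM, both scalings, no intensity trend, replicate block, other sets of libraries), 761 kept direction and side of the threshold, 66 lost a call, 12 gained one and 19 changed sign. The count of the 10 genes called after B3GNT3 knockdown was 0 in AsPC-1 with the library labelled replicate 3 of AsPC-1 siB3GNT3 and 4 in Capan-1 with no filter. For siB4GALT5 against siB3GNT3 it was 1 with that library, 3 in a fit of these groups alone, and 2 to 6 with 1 library left out. For the interaction it was 2 with PHGDH counted, 1 with no filter, with a common sum or with that library, and 1 to 5 with 1 library left out; it was 1 over the 8 genes past the filter in each line, a set chosen after seeing the data, and 7 of these differed between the lines, against 9 of 10.

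Sign changes were as follows. SLC7A5 in Capan-1 was -0.054 without siB3GNT3 replicate 1 (-0.054 to 0.41 over libraries left out). Between the knockdowns, SHMT2 was 0.0051 with median-ratio scaling, 0.012 with the replicate block and 0.054 without siB4GALT5 replicate 3 (-0.061 to 0.054 over libraries left out). With the library labelled replicate 3 of AsPC-1 siB3GNT3, PSPH, SHMT2, MTHFD2, SLC3A2 and SLC1A5 were 0.12, 0.0074, 0.070, 0.24 and 0.17 between the knockdowns. In the interaction, MTHFD2 was -0.040 with median-ratio scaling, -0.0080 with the replicate block, -0.21 with that library and -0.18 without Capan-1 siB3GNT3 replicate 3 (-0.18 to 0.24 over libraries left out). SLC3A2 was -0.011, -0.017, -0.25 and -0.20 under the same (-0.20 to 0.29), and SLC1A5 was -0.10 with that library. Between the lines, SLC1A5 was 0.045 with median-ratio scaling. The causes were not tested.

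Libraries with the same replicate number in their titles did not deviate together (correlations of -0.07 to 0.07 in AsPC-1 and -0.04 to 0.05 in Capan-1). So these numbers were not taken as pairs. Library names carry partly different numbers, and pairing by those was not checked. The 2 kept siB3GNT3 libraries of AsPC-1 deviate as mirror images, so their correlations say little. With the replicate block the counts of the 10 genes called stayed within 1.5 times, and SLC1A5 lost its call between the knockdowns (-0.17, limma adjusted p = 0.0564). Over all genes, counts moved by over 1.5 times after B3GNT3 knockdown in AsPC-1 (0 with the doubted library, against 5697), in Capan-1 (2069 to 5715 with 1 library left out, against 3786), between the knockdowns (2134 and 2190 without siB3GNT3 replicate 1 and 2, 1716 with the doubted library, against 3789) and in the interaction (1204 with it, against 4009). Depth is unknown, and ASNS and PHGDH are too low in 1 line each to test there.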

Other observations

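Genes that use cystine for glutathione rose and fell in both lines. Of 12 tested, 4 rose and 4 fell with siB4GALT5, 3 rose and 3 fell with siB3GNT3 in AsPC-1, and 4 rose and 1 fell in Capan-1. CHAC1, which degrades glutathione and is a known ATF4 target, was 3.28, 3.95 and 2.54 FPKM with siB4GALT5 and 4.28 and 4.59 FPKM with siB3GNT3 in AsPC-1, against 1.36, 1.71 and 1.47 FPKM with siNC. In Capan-1 it was 13.1, 10.6 and 3.59 FPKM with siB3GNT3, against 1.45, 1.26 and 0.964 FPKM with siNC (2.04, limma adjusted p = 0.00477). GCLM, a subunit of the enzyme that starts glutathione synthesis, fell by 0.54 with siB3GNT3 in AsPC-1 and by 0.46 in Capan-1.

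Of 10 tested genes of mTORC1 and leucine sensing, 7 rose and 1 fell with siB4GALT5, 6 rose and 0 fell with siB3GNT3 in AsPC-1, and 3 rose and 1 fell in Capan-1. SESN2, the leucine sensor that restrains mTORC1, was 43.5, 44.2 and 38.1 FPKM with siB4GALT5 and 33.1 and 34.1 FPKM with siB3GNT3 in AsPC-1, against 8.04, 6.74 and 7.40 FPKM with siNC. In Capan-1 SESN2 was 42.5, 30.1 and 11.2 FPKM with siB3GNT3, against 4.50, 5.15 and 4.35 FPKM with siNC (2.17, limma adjusted p = 0.00505). DDIT4, another inhibitor of mTORC1, rose by 1.54, 1.42 and 1.80. The siB3GNT3 library of Capan-1 that was lowest in the 10 genes was also lowest in CHAC1 and SESN2.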
